A study of Mus musculus with 16 samples.

Results

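The genes described here are Nrp1, Nav2, Gpm6b and Amigo2, 4 genes first known from axon guidance or the growth of neurites. They were chosen as the rows with exactly these symbols in the authors' deposited tables of genes that differed at least 2-fold after myocardial infarction. Of 41345 probe sets on the array 270 had exactly 1 symbol in those tables, and 4 of these are the genes described. All 4 came from the table for myosin-specific cells (TCRM) and 0 from the table for endogenous cells (ENDO). The difference between infarction and sham operation in TCRM cells therefore chose the genes, which were selected on fold change in that contrast, and is given below as a description, while the values of ENDO cells took no part in the choice.

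Whole transcript array signal was measured in CD4+ T cells sorted from mediastinal lymph nodes of mice at day 7. The left anterior descending artery of the heart had been tied off (infarction), or the chest had been opened with no ligation (sham). TCRM cells were Thy1.1 CD4+ T cells from naive TCR-M donors, whose transgenic T cell receptor recognises cardiac myosin. They had been given before the operation to wild-type male BALB/c mice of the Thy1.2 type, 8 to 12 weeks old, and ENDO cells were CD4+ T cells that these recipients had themselves. Each population was read on 5 arrays after infarction and 3 after sham operation, and all recipients, the sham group included, had received the transfer and buprenorphine against pain (0.1 mg/kg). TCRM cells share 1 transgenic receptor, so they stand for 1 specificity, while the receptors of ENDO cells are mixed. The labels do not say whether cells of several animals were pooled on an array, and the number of arrays limits the precision.

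Neuropilin 1, encoded by Nrp1, is a membrane co-receptor for class 3 semaphorins and for vascular endothelial growth factor, and in mice it is known as a surface marker of regulatory T cells that arise in the thymus. Nav2 encodes neuron navigator 2, a cytoskeleton-associated protein of growing neurites related to unc-53 of Caenorhabditis elegans. Gpm6b encodes a membrane glycoprotein of the proteolipid family, found in neurons and myelinating glia. Amigo2 encodes a transmembrane adhesion protein with leucine-rich repeats and an immunoglobulin domain.

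The promoters of the 4 genes are shown because 3 of the genes were higher and 1 was lower in TCRM cells after infarction. The RefSeq promoter table (GRCm38.p6) matched all 4 genes with 5 annotated start sites, 2 of them for Nav2. Each stretch runs from 250 bases before a start site to 50 after it, 5′ to 3′ on the gene's strand. Capitals mark matches on either strand to GGAAA (the core recognised by NFAT factors, which act in activated T cells), GGGCGG (the GC box) or TGACGTCA (the cyclic AMP response element).
Gpm6b: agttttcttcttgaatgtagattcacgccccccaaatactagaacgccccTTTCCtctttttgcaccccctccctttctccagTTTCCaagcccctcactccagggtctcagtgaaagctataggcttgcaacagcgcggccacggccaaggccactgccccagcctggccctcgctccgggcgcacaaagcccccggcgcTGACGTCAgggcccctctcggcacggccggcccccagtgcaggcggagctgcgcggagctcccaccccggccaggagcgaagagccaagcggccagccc
Nrp1: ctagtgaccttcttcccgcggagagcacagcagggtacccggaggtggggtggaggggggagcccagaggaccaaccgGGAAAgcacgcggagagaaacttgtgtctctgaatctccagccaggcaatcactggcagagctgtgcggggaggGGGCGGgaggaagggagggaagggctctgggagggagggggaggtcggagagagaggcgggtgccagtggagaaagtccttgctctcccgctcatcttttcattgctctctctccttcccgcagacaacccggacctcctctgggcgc
Nav2, first start site: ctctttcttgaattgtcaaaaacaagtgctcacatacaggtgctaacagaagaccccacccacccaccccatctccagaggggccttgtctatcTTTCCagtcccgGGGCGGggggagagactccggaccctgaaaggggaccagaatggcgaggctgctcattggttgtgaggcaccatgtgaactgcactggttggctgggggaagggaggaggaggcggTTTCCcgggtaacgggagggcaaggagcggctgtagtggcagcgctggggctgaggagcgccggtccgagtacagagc
Amigo2: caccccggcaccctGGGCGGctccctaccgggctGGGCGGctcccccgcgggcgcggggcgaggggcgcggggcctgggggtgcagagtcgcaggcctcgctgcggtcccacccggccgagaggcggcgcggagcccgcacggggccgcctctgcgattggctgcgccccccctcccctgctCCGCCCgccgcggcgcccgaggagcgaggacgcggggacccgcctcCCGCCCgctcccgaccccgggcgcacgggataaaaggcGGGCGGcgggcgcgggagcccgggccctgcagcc
The Gpm6b stretch is chrX:166238693-166238992 on the plus strand and the Nrp1 stretch is chr8:128358823-128359122 on the plus strand. The Nav2 stretch is chr7:48958823-48959122 on the plus strand and the Amigo2 stretch is chr15:97247238-97247537 on the minus strand. GGAAA was matched 2 times for Gpm6b, 1 time for Nrp1, 2 times at the first Nav2 start site and 0 times for Amigo2 and for the second Nav2 start site (chr7:49245939-49246238, plus strand). It is a common string, present in 61.3% of all 32851 promoters of the table. TGACGTCA lies 49 bases before the Gpm6b start site, was not matched in the other stretches and is present in 1.79% of all promoters. GGGCGG was matched 5 times for Amigo2 and is present in 35.7% of all promoters. The Amigo2 stretch is 83.3% G and C, against a median of 52.7% over all promoters, and the others are between 60.7% and 74.7%. TGANTCA (AP-1), TGCTGAC (a Maf half-site), TGTGGT (RUNX) and TATAAA (the TATA box) had no match in the 5 stretches and are present in 7.81%, 4.67%, 16.8% and 13.6% of all promoters. The motifs did not overlap each other in these stretches. They were chosen after the sequences had been read, and a match is a string of letters and not a site shown to be bound. The probe sets do not tell the Nav2 start sites apart.

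The arrays of the populations differed as a whole. Median log2 signal was 5.37 to 5.43 on TCRM arrays and 5.61 to 5.79 on ENDO arrays, and the lowest value was 1.47 to 1.74 and 2.27 to 2.37. The populations were therefore treated as normalized apart, and no level of one was tested against the other. Within a population an array correlated with its fellows at a mean r of 0.953 to 0.978 (TCRM) or 0.891 to 0.955 (ENDO), lowest for TCRM sham array 3 and ENDO infarction array 5. The source names of both arrays titled infarction 5 say sham. Bi-weight averages recomputed over the arrays of each title group matched those in the authors' deposited tables within 0.01 for 196 of 196 TCRM and 274 of 274 ENDO probe sets, against 2 and 8 with the source names, so the titles were used. Of 10 T cell markers only Trat1 was named. Its mean was 7.64 ± 0.40 (log2, SD, n = 5) in TCRM infarction, 8.73 ± 0.26 (n = 3) in TCRM sham, 9.07 ± 0.51 (n = 5) in ENDO infarction and 9.32 ± 0.20 (n = 3) in ENDO sham cells. The other markers were not named, so the label of CD4+ T cells was not checked further.

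Gpm6b had the widest difference of the 4 genes in TCRM cells. Its log2 signal after infarction was 9.33, 9.16, 8.43, 8.94 and 8.41 on arrays 1 to 5, and 6.16, 6.03 and 4.47 on sham arrays 1 to 3. No sham array reached the lowest of the 5 infarction arrays, and sham array 3 lay well under the other two. Sham arrays averaged 5.55 ± 0.94 (log2, SD, n = 3) and infarction arrays 8.85 ± 0.42 (n = 5). The difference was 3.30 ± 0.34 (log2, SE of limma's fit), a 9.86-fold higher signal. On TCRM sham array 3 the gene lay at the 28.0th percentile of that array's probe sets, against the 65.1st and 62.9th on sham arrays 1 and 2, and under the filter cutoff of 4.72. Without that array the difference was 2.76, and with infarction array 5 counted as sham, as its source name says, it was 2.70. In the authors' deposited table the bi-weight averages are 8.87 and 6.09, the fold is 6.85 and the false discovery rate 0.122.

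Nav2 gave the narrowest scatter. Its log2 signal in TCRM cells was 8.52, 8.86, 8.18, 8.20 and 8.40 on infarction arrays 1 to 5, and 6.40, 6.28 and 6.52 on sham arrays 1 to 3. The groups lay far apart, and the range within them was 0.68 and 0.23. The difference was 2.04 ± 0.15 (log2, SE), a 4.10-fold higher signal. The authors' deposited table gives a fold of 4.02 and a false discovery rate of 0.0791 for Nav2.

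Nrp1 was also higher after infarction in TCRM cells. Its log2 signal was 8.67, 9.26, 9.97, 9.43 and 9.98 on infarction arrays 1 to 5, and 8.22, 7.96 and 8.12 on sham arrays 1 to 3. Infarction array 1 lay closest to the sham arrays, and the groups did not overlap. The difference was 1.36 ± 0.29 (log2, SE), a 2.57-fold higher signal. It was 1.56 without TCRM infarction array 1 and 0.76 with infarction array 5 counted as sham. The authors' deposited table gives a fold of 2.57 and a false discovery rate of 0.237 for Nrp1.

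Amigo2 was the gene that was lower after infarction. Its log2 signal in TCRM cells was 6.95, 6.94, 7.19, 7.29 and 7.62 on infarction arrays 1 to 5, and 7.98, 8.25 and 8.20 on sham arrays 1 to 3. All infarction arrays lay below all sham arrays, with infarction array 5 the nearest. The difference was -0.94 ± 0.19 (log2, SE), a 1.92-fold lower signal. In the authors' deposited table the fold is -2.03 and the false discovery rate 0.181. Amigo2 was close to the limit of that table, as its averages differed by -1.02 and the narrowest of the 43 lower differences there was 1.02. Gpm6b, Nav2 and Nrp1 ranked 6, 19 and 75 among the 153 higher ones by the difference of the authors' averages, which went down to 1.01.

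**Figure D1:**
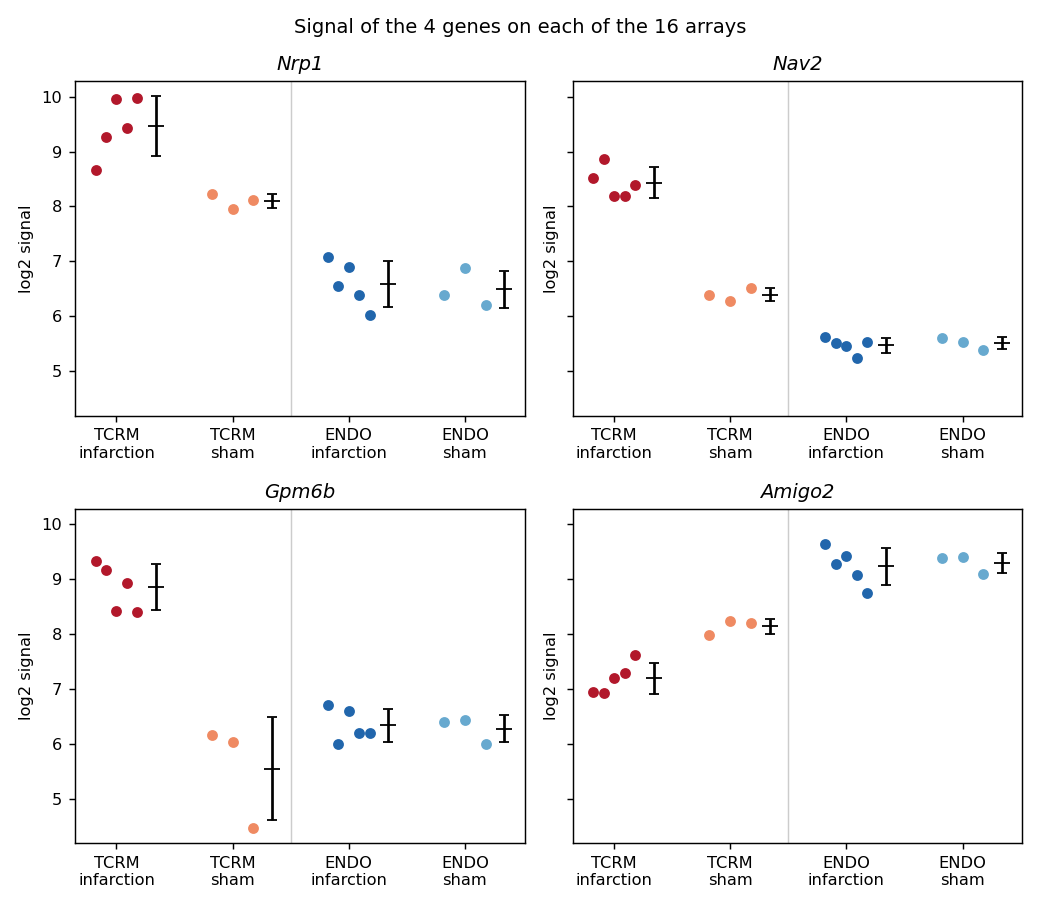
Each panel plots log2 signal (vertical axis) of a gene on the 16 arrays, by population and operation. Points are arrays, and the black bar beside them is the mean ± SD. In TCRM cells the infarction arrays of Gpm6b, Nav2 and Nrp1 lie above the sham arrays and those of Amigo2 below, while in ENDO cells the groups overlap for all 4 genes.

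All 4 genes had TCRM groups that did not overlap, as did 10.3% of all 28941 tested probe sets in either direction. All 4 passed limma's threshold (Benjamini-Hochberg adjusted p under 0.05 over all tested probe sets), as did 0.757% of these. The 3 higher genes compare with 0.667% called higher, and the lower one with 0.0898% called lower. Gpm6b and Nav2 kept that call under 10 of 11 other settings, losing it with infarction 5 counted as sham, and with each of 8 TCRM arrays left out. Amigo2 kept it under 7 of 11 and with 2 of 8 arrays left out, and Nrp1 under 4 of 11 and with 1 of 8, so the call of these latter genes is close to the threshold. As this contrast chose the genes, nothing is read from these counts. In bulk samples, fewer cells of a type and less RNA per cell cannot be told apart, so a lower or higher signal may be either.

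In ENDO cells, also from mediastinal lymph nodes, none of the 4 genes passed the test. Nrp1 differed by 0.10 ± 0.29 (log2, SE), Nav2 by -0.04 ± 0.15, Gpm6b by 0.06 ± 0.34 and Amigo2 by -0.06 ± 0.19. Limma's adjusted p was between 0.950 and 0.978, and 0.888% of the tested probe sets passed in this comparison. The median over the 4 genes was 0.01, against 0.00 over all tested probe sets.

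Nrp1 signal was 7.08, 6.56, 6.89, 6.39 and 6.03 on ENDO infarction arrays 1 to 5, and 6.38, 6.88 and 6.21 on sham arrays 1 to 3. The sham values lay inside the infarction range. The 95% interval of the difference ran from -0.52 to 0.71.

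Nav2 signal was 5.62, 5.52, 5.46, 5.25 and 5.53 on ENDO infarction arrays and 5.62, 5.53 and 5.39 on sham arrays. The groups overlapped, and the values lie near the median of their arrays, between the 39.1st and the 50.3rd percentile. The 95% interval of the Nav2 difference was -0.35 to 0.27, the narrowest of the 4 genes.

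Gpm6b signal was 6.710, 6.001, 6.603, 6.197 and 6.193 on ENDO infarction arrays and 6.406, 6.439 and 5.997 on sham arrays. The groups overlapped, and the 95% interval of the difference was -0.66 to 0.78. That interval leaves room for a difference of moderate size. Its SE of 0.34 came from a spread shared by the 4 groups, TCRM sham (SD 0.94) included. The ENDO groups had SDs of 0.30 and 0.25, and the fit of the 8 ENDO arrays alone gave an SE of 0.20. The interval is not set against the TCRM difference, as that contrast chose the gene.

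Amigo2 signal was 9.64, 9.29, 9.41, 9.08 and 8.75 on ENDO infarction arrays and 9.39, 9.40 and 9.09 on sham arrays. The sham values again lay within the infarction range, and the 95% interval was -0.48 to 0.35. Groups that did not overlap were found for 0 of the 4 genes, against 6.69% of all tested probe sets. Exact two-sided permutation tests over the 56 splits of the 8 ENDO arrays gave p between 0.679 and 0.821, or 0.821 each when adjusted over the 4 genes, where the smallest p possible is 0.0357.

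**Figure D2:**
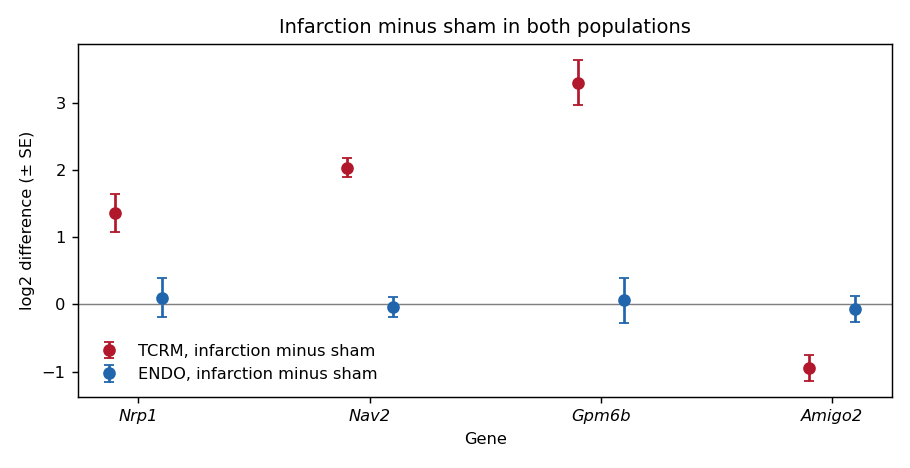
The log2 difference of infarction minus sham is plotted for each gene in TCRM and in ENDO cells, with the SE of the fit as bars. The ENDO differences lie between -0.06 and 0.10, and the TCRM differences between -0.94 and 3.30.

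The TCRM minus ENDO difference of responses, which is built from differences within each population, was 3.24 ± 0.47 (log2, SE) for Gpm6b, 2.07 ± 0.21 for Nav2, 1.26 ± 0.41 for Nrp1 and -0.88 ± 0.27 for Amigo2. It holds the contrast that chose the genes, so it is a description. Gpm6b and Nav2 passed limma's threshold, and 0.193% of all tested probe sets did. Recipients held cells of both populations, but no label ties a TCRM array to an ENDO array. With arrays of the same operation and number taken as 1 animal, as a fixed block, neither passed. Nor did any probe set (2476 at unadjusted p under 0.05). Neither passed with infarction 5 counted as sham, and Gpm6b did not pass without ENDO sham array 1. Nothing is read from that count for the same reason.

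The order of the levels over the 4 groups differed between the genes. The following sets levels of populations that were treated as normalized apart side by side, without a test. Mean Nrp1 signal was 9.46 ± 0.55 (log2, SD, n = 5) in TCRM infarction, 8.10 ± 0.13 (n = 3) in TCRM sham, 6.59 ± 0.41 (n = 5) in ENDO infarction and 6.49 ± 0.34 (n = 3) in ENDO sham cells, so that the lowest pair lay within its spread. Nav2 had that population order too, with 8.43 ± 0.28, 6.40 ± 0.12, 5.48 ± 0.14 and 5.51 ± 0.11 in the same groups. In these values both genes were higher in TCRM than in ENDO cells also after sham operation. Amigo2 ran the other way, at 7.20 ± 0.28, 8.14 ± 0.14, 9.23 ± 0.34 and 9.30 ± 0.18, so it was lower in TCRM cells whichever operation had been done. For Gpm6b TCRM infarction stood alone at 8.85 ± 0.42, while ENDO infarction (6.34 ± 0.30), ENDO sham (6.28 ± 0.25) and TCRM sham (5.55 ± 0.94) lay within their spreads. After quantile normalization of all 16 arrays together the TCRM groups of Nrp1 were at 9.32 and 8.03 and the ENDO groups at 6.52 and 6.42. Those of Nav2 were at 8.28 and 6.48 in TCRM and 5.33 and 5.33 in ENDO cells. Those of Amigo2 were at 7.12 and 8.07 in TCRM and 9.37 and 9.42 in ENDO cells. The populations thus kept their order for Nrp1, Nav2 and Amigo2.

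The named probe sets most like each gene were taken by the highest Pearson r over the 8 TCRM arrays among 163 named probe sets. All of these owe their names to the same deposited tables, so r over these arrays holds the infarction contrast. The correlation of deviations from group means over the 16 arrays, which leaves that contrast out, is given beside it. Both are descriptions.

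Nav2 was most like Slc9a9 (an endosomal sodium and proton exchanger, r = 0.99), H1f0 (a linker histone, 0.99) and Coro2b (a coronin, a family of actin-binding proteins, 0.99). Over deviations r was 0.84 for Coro2b, 0.55 for H1f0 and 0.23 for Slc9a9, where the median over the 163 was 0.29 and the 95th percentile 0.68. Coro2b differed by 1.59 ± 0.18 (log2, SE) in TCRM cells and by 0.07 ± 0.18 in ENDO cells. The ENDO difference of H1f0 was 0.39 ± 0.23.

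Gpm6b was most like Csf1 (the macrophage colony-stimulating factor, r = 0.99), Cd22 (an inhibitory receptor best known from B cells, 0.98) and Tnfsf8 (the ligand of CD30, 0.98). Over deviations r was 0.73, 0.64 and 0.79, where the 95th percentile over the 163 was 0.75. Csf1 differed by 2.28 ± 0.26 in TCRM cells and by 0.26 ± 0.26 in ENDO cells (log2, SE). Cd22 was the sole named gene of 10 B cell markers. Its log2 signal was 7.04 to 7.24 on TCRM infarction arrays, 5.52 to 6.32 on TCRM sham arrays, 5.75 to 5.89 on ENDO infarction arrays and 5.42 to 5.73 on ENDO sham arrays. Whether B cells had a part in the Gpm6b signal was not tested.

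Amigo2 was most like Mtss1 (a regulator of actin and membrane curvature, r = 0.96), Treml2 (a receptor of the family of triggering receptors on myeloid cells, 0.96) and Enpp4 (an ectonucleotide pyrophosphatase family member, 0.94). All 3 were lower after infarction in TCRM cells, by -1.12 ± 0.27, -1.10 ± 0.25 and -1.29 ± 0.22 (log2, SE), and their ENDO differences were between -0.02 and 0.01. Over deviations r was 0.79, 0.77 and 0.68, where the 95th percentile over the 163 was 0.59.

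Nrp1 was most like Snord98 (a small nucleolar RNA, r = 0.91), Flrt2 (0.87) and Snord61 (a small nucleolar RNA, 0.84). Flrt2 encodes a leucine-rich repeat transmembrane protein that is known as a ligand of Unc5 guidance receptors. Its mean was 6.76 ± 0.53 (log2, SD, n = 5) in TCRM infarction and 5.11 ± 0.20 (n = 3) in TCRM sham cells, a difference of 1.65 ± 0.24 (SE). In ENDO cells Flrt2 differed by -0.13 ± 0.24, with an adjusted p of 0.912 in limma's fit. The ENDO differences of Snord98 and Snord61 were 0.80 ± 0.66 and -0.27 ± 0.46 (log2, SE). Over deviations r with Nrp1 was 0.75 for Snord98, 0.26 for Flrt2 and 0.65 for Snord61. The median over the 163 was -0.05 and the 95th percentile 0.55, so Flrt2 lay under that percentile. Snord98 averaged 3.96 on TCRM sham arrays, under the filter cutoff of 4.72.

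**Figure D3:**
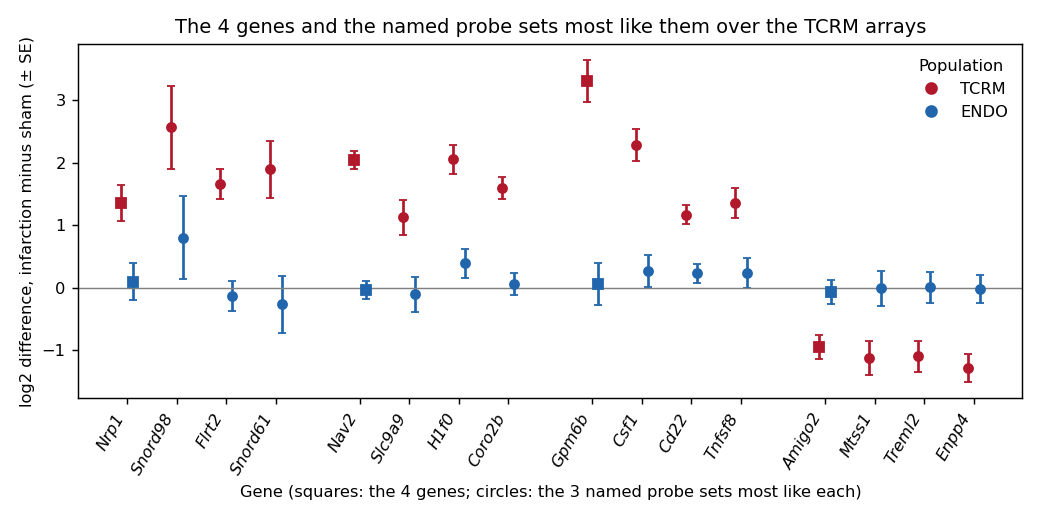
The log2 difference of infarction minus sham (± SE) is plotted in TCRM and ENDO cells for the 4 genes (squares) and the 3 named probe sets most like each (circles). The circles follow their squares in TCRM cells, which the choice by r over these arrays favours, and the ENDO values lie between -0.27 (Snord61) and 0.80 (Snord98).

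Lists of genes around the 4 could be read only where the deposited tables give a name, so their counts do not describe whole lists. Of 72 axon guidance ligands and receptors 2 were named, Nrp1 and Ntn4 (netrin 4, a secreted guidance protein). Ntn4 was at 6.77 ± 0.48 (log2, SD, n = 5) in TCRM infarction and 7.66 ± 0.42 (n = 3) in TCRM sham cells, and its difference of -0.88 ± 0.28 (SE) did not pass. Of 51 genes of neurite growth and neural adhesion 4 were named, the described Nav2, Gpm6b and Amigo2 with Flrt2. Flrt2 passed in TCRM cells, as did these 3, but the authors' TCRM table had selected all 4 on this contrast. Of its tested probe sets with 1 symbol 62.0% (101 of 163) passed, against 0.757% of all tested probe sets. Of 24 ligands and co-receptors of neuropilins 2 were named, Nrp1 and Tgfb3 (transforming growth factor beta 3, of a family whose members are reported to bind neuropilin 1). Tgfb3 was at 6.64 ± 0.49 after infarction and 4.93 ± 0.29 after sham operation in TCRM cells, a difference of 1.72 ± 0.22 (log2, SE), against -0.10 ± 0.22 in ENDO cells.

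Of 21 regulatory T cell genes 4 were named, and Nrp1, Nt5e (the ectoenzyme CD73) and Tigit (an inhibitory receptor) were called in TCRM cells, while Prdm1 (a transcription factor) was not. Of 22 follicular helper genes 8 were named and 8 were called, Gpm6b among them. Tigit and Nt5e stand in both lists, so the counts are not separate. The other follicular helper genes of the list were not named and could not be read. These counts stand beside 0.757% called over all tested probe sets, but beside 62.0% (101 of 163) of the tested probe sets that the authors' TCRM table names with 1 symbol. The medians of the named regulatory and follicular helper genes were 1.64 and 2.20 in TCRM cells, against 0.00 over all tested probe sets, and 0.18 and 0.20 in ENDO cells, where 0 of them were called. As the authors had selected all of these genes on the TCRM arrays, their counts give no independent evidence of direction. Defining genes of regulatory T cells such as Foxp3 were not named. Of 10 markers of CD8 T and NK cells Nkg7 was named, at 8.95 ± 0.35 (log2, SD, n = 5) in TCRM infarction and 7.88 ± 0.53 (n = 3) in TCRM sham cells. None of 15 dendritic cell and macrophage markers or of 16 stromal, endothelial and glial markers was named. The part of other cells in the values of the 4 genes was not tested.

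Within the groups other than TCRM sham, Nrp1 and Amigo2 varied together, although infarction and sham TCRM cells differed in opposite directions for them. In TCRM sham cells array 1 was highest for Nrp1 (8.22) and lowest for Amigo2 (7.98). Array 2 was lowest for Nrp1 (7.96) and highest for Amigo2 (8.25). The deviations from group means had r = 0.78 over 16 arrays, 0.65 over the 8 TCRM and 0.92 over the 8 ENDO arrays. TCRM infarction array 5 was highest in its group for both genes (9.98 and 7.62), and ENDO infarction array 5 was lowest in its group for both (6.03 and 8.75). After quantile normalization of the 16 arrays r was 0.76. The other 5 pairs of the 4 genes had r between -0.17 and 0.17 over the 16 arrays. These values pool populations of opposite sign, except for Nav2 with Gpm6b (0.10 in TCRM and 0.48 in ENDO cells). In ENDO cells r was 0.76 for Nrp1 with Gpm6b and 0.72 for Gpm6b with Amigo2, against -0.52 and -0.51 in TCRM cells. The pairs of Nav2 had r of 0.36 to 0.48 in ENDO cells and -0.50 to 0.10 in TCRM cells. Variation in common on the ENDO arrays was thus not limited to Nrp1 and Amigo2.

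In ENDO cells this variation moved with a property of the whole array, the SD of log2 signal over its probe sets, which ran from 1.72 to 1.86. Nrp1 signal had r = 0.93 and rho = 0.95 with it over 8 arrays (exact permutation p = 0.00191 and 0.00114, adjusted over 4 genes 0.00521 and 0.00456). Amigo2 had r = 0.89 and rho = 0.90 (exact permutation p = 0.0026 and 0.00456, adjusted 0.00521 and 0.00913). Without the 2 arrays farthest from the median SD, r was 0.85 for Nrp1 and 0.83 for Amigo2 over 6 arrays (exact permutation p = 0.0472 and 0.0556). Gpm6b had r = 0.68 and rho = 0.71 (exact permutation p = 0.0657 and 0.0576, adjusted 0.0877 and 0.0768), and r = 0.52 without these 2 arrays. Nav2 had r = 0.53 and rho = 0.40 (exact permutation p = 0.184 and 0.327, the same when adjusted), and r = 0.56 without these 2 arrays. Many probe sets moved with array SD. Of all tested ones 1.05% had an r at least as high as Nrp1 and 0.840% one at least as far below 0. For Amigo2 these shares were 3.34% and 2.75%, for Gpm6b 19.4% and 15.1%, and for Nav2 29.8% and 25.0%. Array SD was 1.72 to 1.86 after infarction and 1.72 to 1.80 after sham operation. After quantile normalization of the 16 arrays r was 0.91 for Nrp1, 0.84 for Nav2, 0.72 for Gpm6b and 0.83 for Amigo2. The part of array spread in the ENDO differences was not tested.

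**Figure D4:**
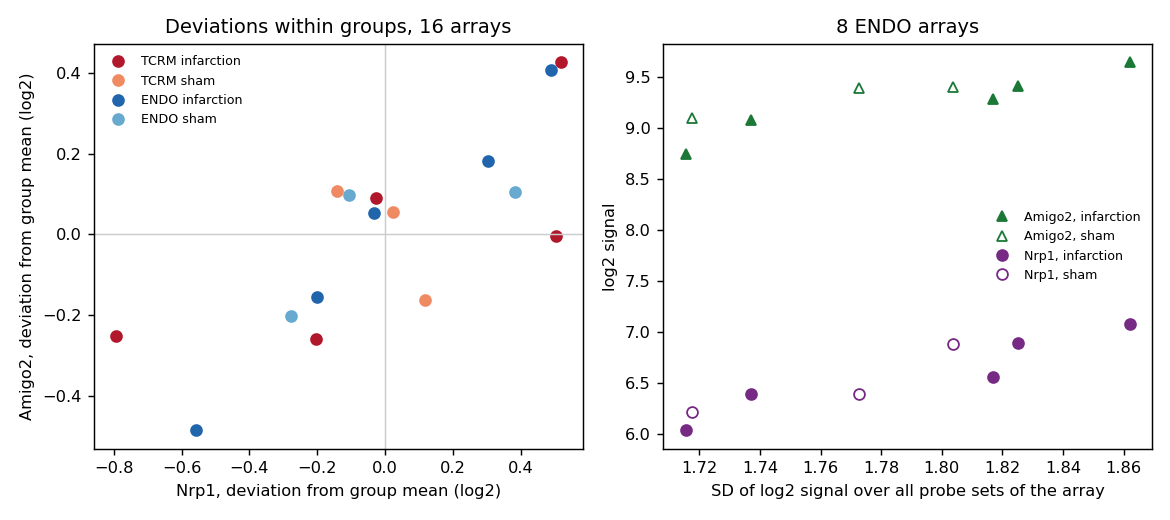
The left panel plots the deviation of Amigo2 from its group mean (log2) against that of Nrp1 on the 16 arrays, and the right panel plots log2 signal of both genes on the 8 ENDO arrays against the SD of all probe sets of the array. Points rise from lower left to upper right in both panels, apart from the TCRM sham points on the left. The r is 0.78 on the left over all 16 arrays, and 0.93 (Nrp1) and 0.89 (Amigo2) on the right.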

How the data were processed

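Array values of 16 samples were used, with 4 genes followed through them. The authors deposited log2 signal per probe set. The submitters' processing notes list Affymetrix Expression Console and Transcriptome Analysis Console. How signal was summarised and normalized is not given in the sources used here. The deposited tables of 2-fold genes (per the file headers, bi-weight averages, fold, ANOVA p-value and false discovery rate) have decimal commas, read as points. They gave the symbols: of their 468 probe sets 270 had 1 symbol, 18 several and 180 none, and other probe sets are unnamed here.

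A filter on low values removed 12404 probe sets whose mean log2 signal was below 4.72, the 30th percentile, and left 28941, among them all 4 genes, whose values no other probe set shared. Group means were estimated for the 16 arrays together with lmFit and eBayes (limma 3.58.1, R 4.3.3). Two-sided p-values were adjusted after Benjamini-Hochberg, and the threshold was 0.05. On simulated data for the TCRM comparison (28941 probe sets with equal noise, 200 of them changed), the fit recovered 100% of changes of 1 and 100% of those of 2 on the log2 scale with 0 false calls. That noise was the median residual SD (0.20 on TCRM arrays). The outcome checks how the fit runs and does not give its power for noisier probe sets. Correlations and permutations used python 3.11.15 and scipy 1.17.1, and figures matplotlib 3.10.9.

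The genes and lists were chosen with earlier results of these data known. The rule for names took the 4 genes, the 3 named probe sets most like each (no gene models, clones, receptor segments or pseudogenes) and named members of the lists. The labels do not say whether each array held 1 animal, so p-values measure the spread between arrays. Arrays of TCRM and ENDO cells with the same number had deviations that correlated between -0.09 and 0.08 over 8 pairs, and 0 exceeded 0.1, so the number was not taken as a pairing in the main fit. The blocks by animal took arrays of the same operation and number as 1 animal, which the labels do not state. Alternatives changed the filter, scaling, spread, weights, samples, block and labels. Scaling within each population was added after seeing the data.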

Additional observations from a re-analysis of the deposited data

Results flagged for a closer look

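For Gpm6b and Nav2 the infarction minus sham difference was larger in TCRM than in ENDO cells, by 3.24 and 2.07 on the log2 scale, and passed limma's threshold as a difference of differences. Both lost that call with the assumed animal as a fixed replicate block and with infarction 5 counted as sham. Gpm6b also lost it without ENDO sham array 1. Both genes were chosen for their difference in TCRM cells, so this is no independent test of them. In groups of 5 arrays no array passed Dixon's outlier limit (gap over range of 0.71) for any of the 4 genes. The groups of 3 sham arrays were not checked this way. There Gpm6b was 4.47 on TCRM sham array 3, against 6.16 and 6.03 on sham arrays 1 and 2.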

How the results depend on the processing

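None of the 4 genes passed in ENDO cells under any of the 11 other settings or with any of the 8 ENDO arrays left out (adjusted p 0.519 to 0.997 and at least 0.692), but the signs of these small differences turned. Nav2 (-0.04) was 0.0026 and 0.0029 after quantile normalization of all arrays and within populations and 0.036 with the number as a fixed replicate block, Gpm6b (0.06) was -0.059 with array weights, and Amigo2 (-0.06) was 0.20 with the infarction 5 arrays counted as sham. With 1 ENDO array left out they were -0.040 to 0.29 (Nrp1, below 0 without infarction 1 or sham 3), -0.097 to 0.018 (Nav2, above 0 without infarction 4 or sham 1), -0.082 to 0.15 (Gpm6b, below 0 without infarction 1, infarction 3 or sham 3) and -0.17 to 0.058 (Amigo2, above 0 without infarction 5).

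The TCRM differences of the 4 genes kept their direction under these 11 settings and with each TCRM array left out. With infarction 5 counted as sham Nrp1 was 0.76 and Nav2 1.54, and the difference of responses was 0.41 for Nrp1, 1.60 for Nav2 and 2.58 for Gpm6b. That difference was 1.80 for Nav2 after quantile normalization of all arrays. With 1 array left out it was 2.70 to 3.54 for Gpm6b, lowest without TCRM sham array 3.

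The number of probe sets called over the whole array moved more. For TCRM it was 219, against 131 after quantile normalization of all arrays, 377 with array weights, 118 with the 8 arrays alone, 0 (2051 at unadjusted p under 0.05) with infarction 5 counted as sham, and 113 to 310 with 1 array left out (127 without infarction 1, 124 without infarction 2, 113 without sham 2 and 127 without sham 3). For ENDO it was 257, against 442, 1529 and 0 (2333 at unadjusted p under 0.05 in limma) in the first 3 of these settings, with 913 higher and 616 lower under array weights and 282 and 49 with infarction 5 counted as sham, against 102 and 155, 129 with the number as a fixed replicate block, and 51 to 639 with 1 array left out (152 without infarction 1, 639 without infarction 5, of which 389 higher and 250 lower, and 51, 170 and 117 without sham 1, 2 and 3), so the shares called in ENDO cells are uncertain. For the difference of responses it was 56, against 31 with median centring, 213 with array weights, 89 with scaling within populations, 24 with the number as a replicate block, 0 (2476 at unadjusted p under 0.05 in limma) with the animal as a fixed replicate block, 0 (3033 at unadjusted p under 0.05) with infarction 5 counted as sham, and 10 to 82 with 1 array left out (lowest without ENDO sham 1). Its 48 higher and 8 lower became 47 and 28 after quantile normalization of all arrays, 60 and 29 after scaling within populations and 125 and 88 with array weights. The replicate blocks that could be fitted changed no call of the 4 genes in ENDO cells. For Nrp1 and Amigo2 the TCRM call was lost with median centring, the 8 arrays alone, the fixed number as replicate block and infarction 5 counted as sham, and for Nrp1 also with no filter and both quantile normalizations. It was kept without TCRM infarction array 1 (Nrp1) and without TCRM infarction array 5 or sham array 1 (Amigo2), and lost without any other single TCRM array. The cause of these moves was not tested. The likeness of the named probe sets stayed positive with Spearman's rho. How far the low Gpm6b signals lie above background is not known.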
